A study of Mus musculus with 6 samples.

Results

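The genes of the major histocompatibility complex and of antigen presentation were followed in mouse CD4+ T cells cultured with NETs or with vehicle. Members were the protein-coding rows of the deposited gene table whose symbol begins with H2-, other than H2-Ke6, together with 12 named partners and regulators of presentation. The rule gave 45 genes of the 54532 in the table. They comprised 2 classical class I heavy chains (H2-K1 and H2-D1), 6 genes of the Q loci, 4 of the T loci, 12 of the M loci, 9 class II genes, and the 12 partners and regulators. The rule reads names and biotype rather than expression values, but it was chosen with earlier results of these data known.

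Class I molecules consist of a heavy chain and beta-2-microglobulin and show peptides made by the proteasome to CD8 T cells. The peptides are carried into the endoplasmic reticulum by the TAP transporter, loaded with the help of tapasin and trimmed by aminopeptidases. The heavy chains of the Q, T and M loci are less polymorphic relatives of the classical ones, and several present restricted sets of peptides or bind receptors of natural killer and gamma-delta T cells. Class II molecules present peptides from endosomes to CD4 T cells. In mice they are made chiefly by B cells, dendritic cells and macrophages, while resting and activated mouse T cells are known for abundant class I and little class II. The transactivator NLRC5 drives class I genes and CIITA drives class II genes, both through promoter elements bound by the RFX complex, CREB or ATF proteins and NF-Y.

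The libraries were bulk RNA sequencing of splenic naive CD4+ T cells of the strain C57BL/6. NETs are neutrophil extracellular traps, webs of chromatin studded with granule proteins that neutrophils expel. All 6 cultures, 3 with NETs and 3 with vehicle, ran for 72 h and shared beads against CD3 and CD28, IL-2, and antibodies that neutralise interferon-gamma and IL-4. Interferon-gamma is a known inducer of both transactivators. The sources used here give neither the origin and dose of the NETs nor the age and number of animals. They do not say whether replicates came from separate mice or wells, so the p-values reflect only how these libraries scatter, which may be technical.

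Total counts were 15657622 to 18655997 per library. Values are CPM, the gene's reads scaled to the library's total, or the authors' FPKM, which also divides by a gene length and is used here for levels between genes. The CD4 T cell label was checked against markers. Cd4 lay between 854 and 955 CPM in vehicle and between 872 and 898 CPM with NETs, none of the 10 CD4 T cell markers passed an unadjusted p of 0.05, and Cd8a stayed at or below 2.39 CPM in all libraries. Cd8b1 was higher, at 16.5 to 18.8 CPM in vehicle and 12.2 to 17.1 CPM with NETs. The 14 neutrophil markers summed to 3.20 ± 0.499 CPM in vehicle and 5.81 ± 0.798 CPM with NETs (SD, n = 3). Of these, 12 stayed under 1 CPM in every library. All 3 tested had a positive log2 fold change, and 1 was higher at p under 0.05, beside 6.72% of all genes. With all 6 libraries the largest log2 fold change among these markers, 7.30, was also the largest of all genes tested. Without vehicle replicate 3, 2 markers were higher at p under 0.05, beside 11% of all genes. In that fit 1 was higher at an adjusted p under 0.05, beside 1.51% of all genes. The vehicle libraries were spread, with vehicle replicates 2 and 3 at the ends. On the first principal component of all tested genes vehicle replicate 3 had the coordinate 11.4, close to the 11.9 of NETs replicate 2, while vehicle replicates 1 and 2 lay at -16.5 and -40.0. Over the first 2 components vehicle replicate 1 was 29.2 units from vehicle replicate 3 and 35.1 from vehicle replicate 2, and vehicle replicate 3 was 1.34 from NETs replicate 2. Vehicle replicate 3 was the lowest vehicle library in 23 of the 31 members tested and vehicle replicate 2 the highest in 18. The leading results are given with and without vehicle replicate 3, and without vehicle replicate 2 where that moved them.

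Promoters of class I and class II genes are known for a shared set of elements, and they are shown for the classical genes, for the Q genes whose values differ below, for B2m and for the class II alpha chain H2-Aa. Each window is 145 bases of RefSeq promoter sequence on build GRCm38.p6, read 5′ to 3′ on the gene's strand and placed on its first Y box. The positions are chr17:34000344-34000488 on the minus strand for H2-K1, chr17:35262893-35263037 for H2-D1, chr17:35379413-35379557 for H2-Q4, chr17:35424646-35424790 for H2-Q6, chr17:35438990-35439134 for H2-Q7 and chr17:35342101-35342245 for H2-Q2. B2m is at chr2:122147509-122147653 and H2-Aa at chr17:34287852-34287996 on the minus strand. Capitals mark 4 short strings searched on both strands: the NF-kB site core GGGATTCCC, the interferon response element core TTTCACTT, the X2 box core TGACG and the Y box ATTGG. In H2-Aa the X2 core overlaps its own match on the other strand. The TGACG marked in H2-Q4 lies after the Y box, whereas in H2-K1, H2-D1 and H2-Q7 it lies before it.
H2-K1: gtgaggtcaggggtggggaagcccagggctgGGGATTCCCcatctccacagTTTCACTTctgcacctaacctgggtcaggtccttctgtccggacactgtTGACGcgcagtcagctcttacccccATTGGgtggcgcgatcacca
H2-D1: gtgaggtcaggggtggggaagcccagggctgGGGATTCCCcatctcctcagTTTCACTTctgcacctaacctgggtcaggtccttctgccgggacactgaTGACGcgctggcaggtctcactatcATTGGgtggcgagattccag
H2-Q4: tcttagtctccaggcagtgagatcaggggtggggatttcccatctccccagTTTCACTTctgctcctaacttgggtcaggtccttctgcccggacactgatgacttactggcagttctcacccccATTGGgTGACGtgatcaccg
H2-Q6: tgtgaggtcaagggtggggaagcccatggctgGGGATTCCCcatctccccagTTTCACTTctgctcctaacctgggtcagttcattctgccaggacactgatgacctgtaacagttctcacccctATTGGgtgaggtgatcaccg
H2-Q7: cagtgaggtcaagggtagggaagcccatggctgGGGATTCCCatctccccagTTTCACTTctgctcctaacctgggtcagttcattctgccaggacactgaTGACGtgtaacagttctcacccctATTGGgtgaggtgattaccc
H2-Q2: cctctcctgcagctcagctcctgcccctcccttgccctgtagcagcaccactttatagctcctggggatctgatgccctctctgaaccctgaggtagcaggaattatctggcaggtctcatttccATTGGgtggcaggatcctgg
B2m: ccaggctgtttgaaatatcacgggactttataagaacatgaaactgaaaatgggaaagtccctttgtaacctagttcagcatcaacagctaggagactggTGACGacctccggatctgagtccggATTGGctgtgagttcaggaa
H2-Aa: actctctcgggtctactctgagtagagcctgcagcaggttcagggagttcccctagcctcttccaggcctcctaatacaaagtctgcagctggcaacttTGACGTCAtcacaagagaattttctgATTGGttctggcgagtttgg

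The string ATTGG, the inverted CCAAT motif bound by NF-Y, was in 34 of 39 member promoters of 300 bases against 37.4% of all 32851 promoters of that length. The core TGACG was in 15 of the 39 against 20.8%, TTTCACTT in 11 against 1.601%, and GGGATTCCC in 5 against 0.353%. H2-K1 and H2-M9 each enter with 2 overlapping promoters, and several class I windows above are much alike. The member promoters are thus not separate observations. An X2 core followed by a Y box within 40 bases on the sense strand was found in 7 member promoters, those of H2-K1 (2 promoters), H2-D1, H2-Q7, H2-M3, H2-Aa and B2m, and in 0.569% of all promoters. H2-Q7 and H2-Q6 differ around the X2 core in these windows, which is marked in H2-Q7 but not in H2-Q6. In the H2-Q2 window the Y box is the only marked string. These matches describe letters and are not evidence of binding. Promoters were matched for 36 of the 45 members.

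Class I RNA was abundant in these cells and class II RNA was scarce. In vehicle, H2-K1 stood at 1761 ± 223 FPKM, H2-D1 at 1647 ± 253 FPKM and B2m at 1317 ± 111 FPKM (SD, n = 3). The ranges of H2-K1 and H2-D1 overlapped, as did those of H2-D1 and B2m. The next member by level was Tapbp at 248 FPKM, followed by H2-T23 at 187, H2-Q4 at 156, H2-Q7 at 155, Tap1 at 143, Tap2 at 110, H2-T22 at 87.1 and Nlrc5 at 85.8 FPKM. Neighbours from H2-T23 to Tap1 overlapped in their vehicle ranges, as did H2-T22 and Nlrc5, while Tapbp, Tap1 and Tap2 each lay apart from the next gene down. Among class II genes the highest was H2-DMa at 60.5 FPKM, a subunit of the peptide exchanger. The alpha and beta chain genes H2-Ab1, H2-Eb1 and H2-Aa reached 21.9, 10.19 and 7.54 FPKM, and the transactivator Ciita 0.601 FPKM. Classical class I made up 47.3% ± 1.33 of the members' reads in vehicle and 48.5% ± 1.95 with NETs (SD, n = 3), and class II 2.35% ± 0.161 and 2.29% ± 0.198.

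**Figure D1:**
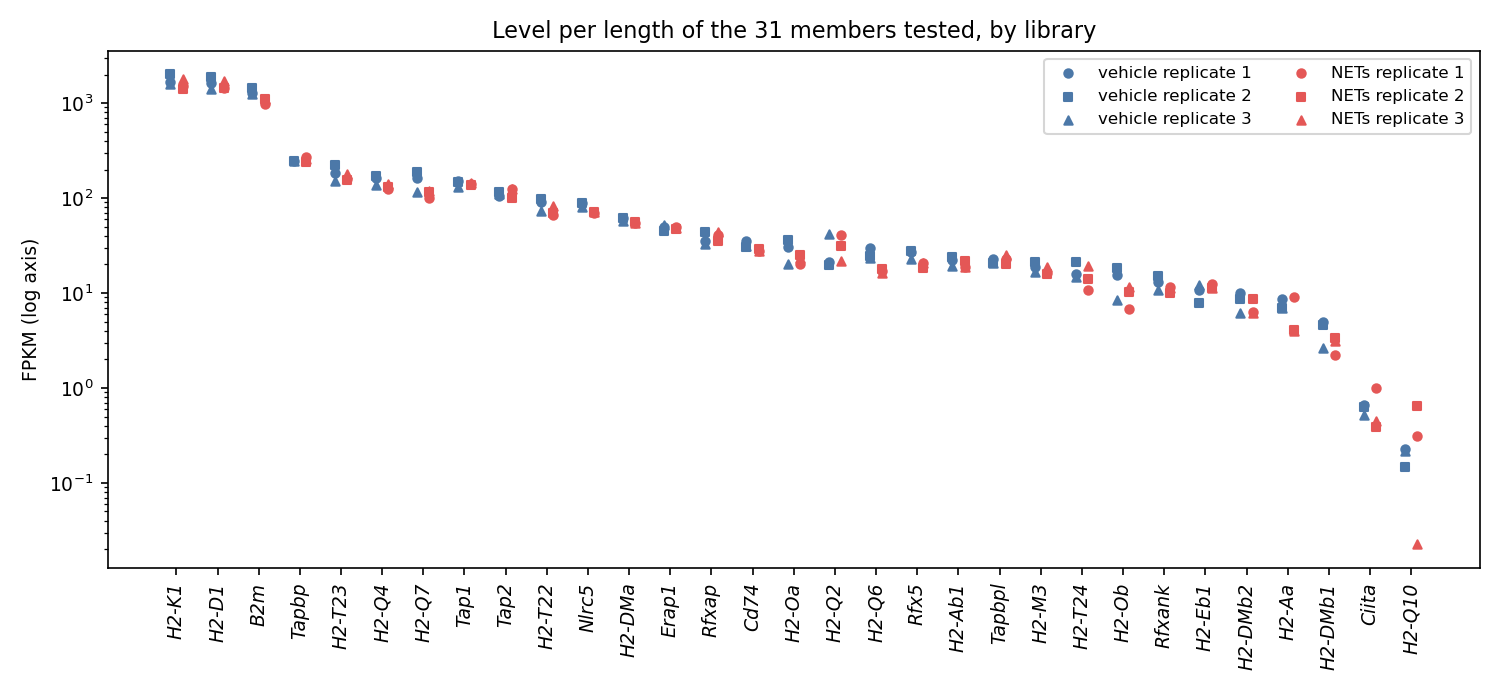
The plot shows the authors' FPKM of each tested member on a log axis, with a point for each of the 3 vehicle and 3 NETs libraries. H2-K1, H2-D1 and B2m have the highest vehicle means, 1761, 1647 and 1317 FPKM, and Ciita has 0.601 FPKM.

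Of the 45 members, 31 had enough reads to be tested. The other 14 were near silent. H2-M1, H2-M9, H2-M10.1, H2-M10.3, H2-M10.4, H2-M10.5, H2-M10.6 and H2-M11 had 0 reads in all 6 libraries, which allows up to 3 counts over a group, or 0.0595 CPM in vehicle and 0.0569 CPM with NETs. H2-Q1, H2-T3, H2-M2, H2-M5, H2-M10.2 and H2-Eb2 had at most 19 reads in the 6 libraries together. Most M locus genes thus gave no signal at this depth. H2-M3, which presents formylated peptides, was the exception at 27.1 ± 3.14 CPM in vehicle and 24.4 ± 2.26 CPM with NETs (SD, n = 3). H2-Q10, a secreted class I chain, had 26 reads in vehicle and 46 with NETs. Its NETs libraries ranged from 0.0583 CPM in replicate 3 to 1.69 CPM in replicate 2, and no direction is drawn from it.

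The design compares NETs with vehicle. With edgeR's quasi-likelihood test and Benjamini-Hochberg adjustment over 13900 genes, 0 of the 31 members passed an adjusted p of 0.05, and 0% of all genes did. The smallest adjusted p among members was 0.223 and among all genes 0.170. DESeq2, given the same 13900 genes, called 2 members, H2-Q6 and H2-Q7, among 130 genes. With limma-voom 0 members and 1 gene in all were called. Most members nevertheless had lower values with NETs: 23 of 31 had a negative log2 fold change, with a median of -0.18 against 0.00 over all genes. At an unadjusted p under 0.05, 7 members (22.6%) were lower, beside 6.06% of all genes, and 0 were higher, beside 6.72%. These 7 were H2-Q4, H2-Q6, H2-Q7, H2-T22, B2m, Nlrc5 and Rfx5. Every NETs library lay below every vehicle library for 6 members (19.4%), H2-Q6, H2-DMa, B2m, Nlrc5, Cd74 and Rfx5, beside 9.04% of all genes. Every NETs library lay above every vehicle library for 0 members, beside 7.68%.

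Leaving out vehicle replicate 3 gave 4 members past the adjusted threshold, all lower with NETs: H2-Q6, H2-Q7, H2-Ob and Rfx5 (12.9% of 31). Beside them 1.3% of all 14391 genes tested were called lower and 1.51% higher. At an unadjusted p under 0.05, 12 members were lower without it, beside 9.48% of all genes, and 1 was higher, H2-Q2, beside 11%. That made 13 members against 7 with all libraries. With any other single library left out, 0 members passed the adjusted threshold. Vehicle replicate 3 was the lowest vehicle library in 23 of the 31, so removing it tends to make log2 fold changes more negative. In bulk samples, fewer cells of a type and less RNA per cell cannot be told apart.

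**Figure D2:**
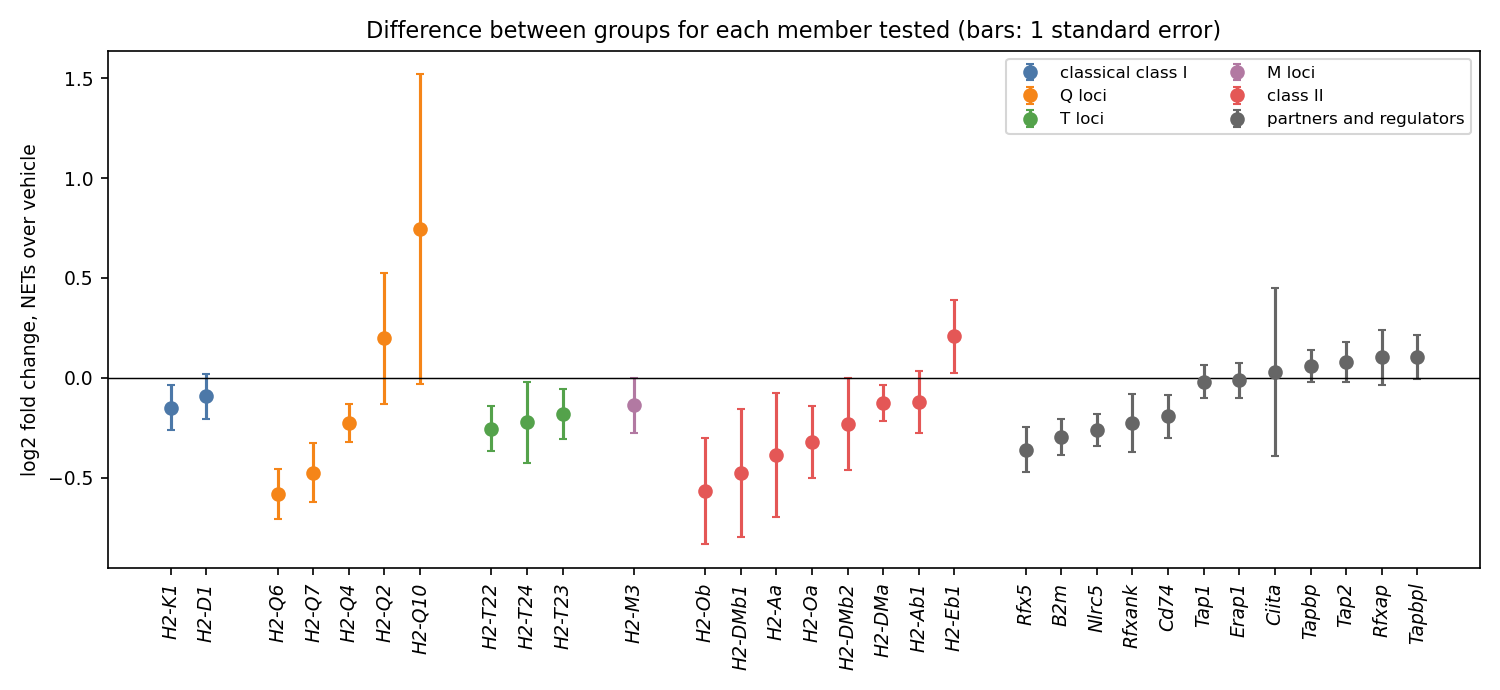
The plot shows the log2 fold change of each tested member, NETs over vehicle, with its standard error from edgeR, grouped by class, from all 6 libraries. Of the 31 points 23 lie below 0, H2-Q6 at -0.58 and H2-Ob at -0.57 the lowest, and Tap1, Tapbp and Tap2 lie within 1 standard error of 0.

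The classical heavy chains had slightly lower means with NETs, and neither passed the test. H2-K1 (ENSMUSG00000061232, chr17:33996017-34000333) measured 1873, 2259 and 1792 CPM in vehicle and 1710, 1570 and 2020 CPM with NETs. H2-D1 (ENSMUSG00000073411, chr17:35262730-35267499) measured 1473, 1723 and 1267 CPM in vehicle and 1300, 1305 and 1550 CPM with NETs. For both genes the groups overlapped, with vehicle replicate 2 the highest library and NETs replicate 3 above vehicle replicate 3. The log2 fold change was -0.15 (SE 0.11, adjusted p 0.592) for H2-K1 and -0.09 (SE 0.11, adjusted p 0.767) for H2-D1. Without vehicle replicate 3 they were -0.22 and -0.20, and without vehicle replicate 2 they were -0.03 and 0.04. H2-K1 stood at -0.07 without NETs replicate 2 and -0.26 without NETs replicate 3, and H2-D1 at -0.04 and -0.19. Summed over both genes the level was 3462 ± 472 CPM in vehicle and 3152 ± 368 CPM with NETs (SD, n = 3), a ratio of 0.910.

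The Q loci stood lower by more than the classical genes. Their summed level was 721, 779 and 597 CPM in vehicle and 531, 564 and 577 CPM with NETs, so that every vehicle library lay above every NETs library. The ratio of means was 0.798, and 0.744 without vehicle replicate 3. The class difference between Q and classical genes was not tested. Of 5 tested Q genes, 3 were lower at p under 0.05 and 0 higher, beside 6.06% and 6.72% of all genes. These genes share sequence, as given below, so they are not separate observations. The median log2 fold change was -0.23. H2-Q6 and H2-Q7 encode the Qa-2 type of heavy chain, which can be held in the membrane by a lipid anchor.

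H2-Q6 (ENSMUSG00000073409, chr17:35424850-35430055) measured 46.0, 37.3 and 35.4 CPM in vehicle and 26.1, 27.5 and 25.1 CPM with NETs. The groups did not overlap, and the lowest vehicle library was vehicle replicate 3. The log2 fold change was -0.58 (SE 0.13, p 0.000342 from edgeR, adjusted p 0.223), the smallest p of any member. The adjusted p was 0.0235 without vehicle replicate 3 and between 0.171 and 0.812 with any other single library left out. H2-Q7 (ENSMUSG00000060550, chr17:35439155-35443773) measured 294, 342 and 212 CPM in vehicle and 180, 208 and 217 CPM with NETs. Vehicle replicate 3 lay below NETs replicate 3, and the other vehicle libraries lay above all NETs libraries. Its log2 fold change was -0.47 (SE 0.15, adjusted p 0.245). It was -0.64 (SE 0.10, adjusted p 0.0153) without vehicle replicate 3 and -0.30 (adjusted p 0.600) without vehicle replicate 2.

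H2-Q4 (ENSMUSG00000035929, chr17:35379617-35385290) measured 355, 375 and 299 CPM in vehicle and 274, 289 and 309 CPM with NETs. NETs replicate 3 was above vehicle replicate 3. On the log2 scale the difference was -0.23 (SE 0.10, adjusted p 0.344). It was -0.32 (adjusted p 0.0612) without vehicle replicate 3 and -0.15 (adjusted p 0.750) without vehicle replicate 2. H2-Q2, named after its values were seen, had the opposite order of vehicle libraries to H2-Q7, with 25.6, 24.1 and 50.3 CPM in vehicle and 49.7, 37.6 and 26.3 CPM with NETs. Its vehicle replicate 3 was the highest library, and its log2 fold change of 0.20 (SE 0.33, adjusted p 0.845) was 0.62 without vehicle replicate 3 and -0.05 without NETs replicate 1. Q genes share sequence, and the counting program's treatment of reads that match several genes is not given. Of all 50-base words in H2-Q6 transcripts, 35.0% occur in other genes, as do 26.5% of those in H2-Q7, 36.4% in H2-Q4 and 16.1% in H2-Q2, so how reads divide between these genes is uncertain. The pseudogene H2-Q5, outside the rule, measured 24.4, 25.0 and 20.8 CPM in vehicle and 13.5, 15.98 and 13.9 CPM with NETs, and its log2 fold change stood at -0.68 (SE 0.15, adjusted p 0.223). It shares 36.4% of its words, 25.5% with H2-Q7.

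**Figure D3:**
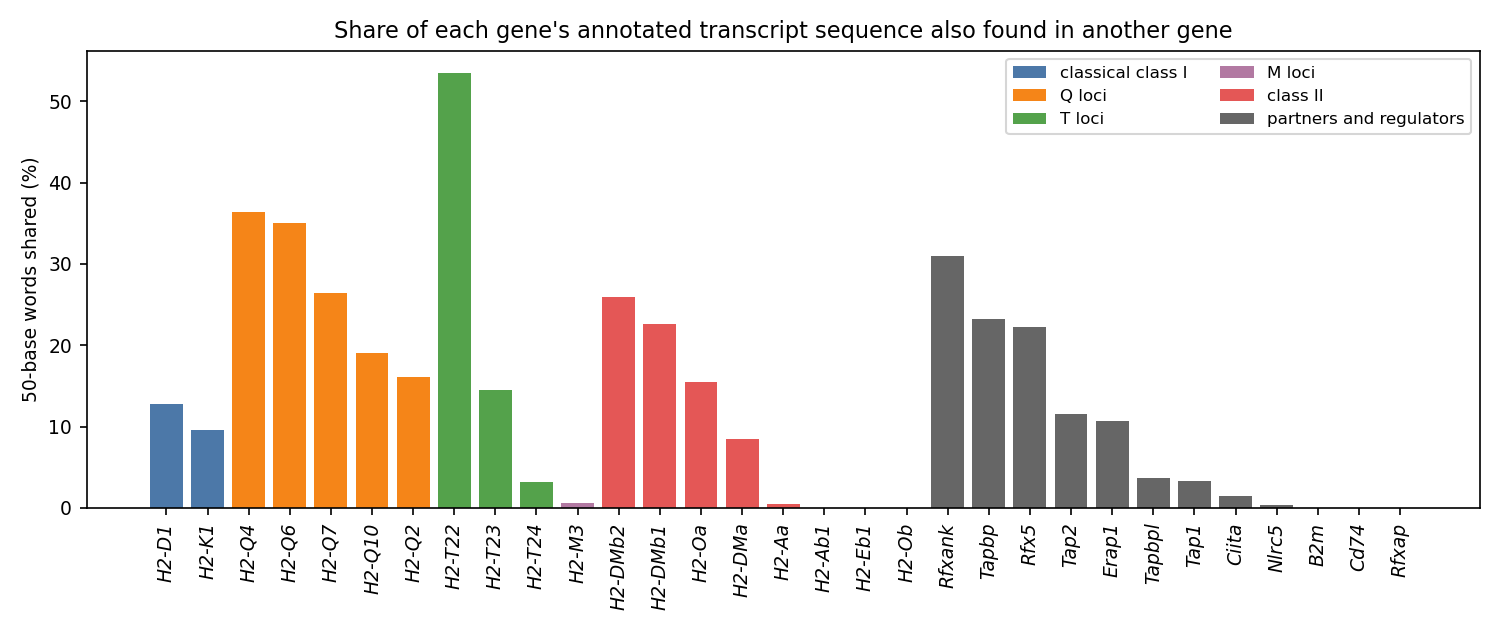
The plot shows, for each member, the percentage of 50-base words in its transcripts that also occur in transcripts of other genes. H2-T22 is highest at 53.5%, H2-Q4 and H2-Q6 follow among the Q genes at 36.4% and 35.0%, and B2m and Cd74 are at 0%.

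Of the T loci, H2-T23, which encodes the Qa-1 molecule bound by inhibitory receptors of natural killer and CD8 T cells, measured 317, 383 and 256 CPM in vehicle and 269, 262 and 305 CPM with NETs. H2-T22 (ENSMUSG00000056116, chr17:36037128-36042747), recognised by gamma-delta T cells, measured 176, 191 and 144 CPM in vehicle and 130, 135 and 160 CPM with NETs. H2-T24 measured 24.1, 32.4 and 22.8 CPM in vehicle and 16.5, 21.4 and 29.6 CPM with NETs. In all 3 the groups overlapped, with NETs replicate 3 above vehicle replicate 3. The log2 fold changes were -0.18 for H2-T23, -0.25 for H2-T22 (p 0.0411 from edgeR, adjusted p 0.368) and -0.22 for H2-T24. The summed level of T loci was 515 ± 91.4 CPM in vehicle and 443 ± 45.5 CPM with NETs (SD, n = 3). Without vehicle replicate 3, H2-T22 had -0.36 (adjusted p 0.0676) and H2-T23 -0.32 (adjusted p 0.0981), and without vehicle replicate 2 they had -0.16 and -0.02. The median of the 3 genes, -0.22, was -0.04 without vehicle replicate 2 and -0.32 without vehicle replicate 3. Of the 50-base words in H2-T22 transcripts 53.5% occur in other genes, 31.2% in H2-T10 alone, so its reads are uncertain too.

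The light chain and the class I transactivator had lower values with NETs, and neither passed the adjusted threshold. The 12 partners and regulators summed to 2406, 2562 and 2306 CPM in vehicle and 2108, 2122 and 2237 CPM with NETs, without overlap. Without B2m the other 11 summed to 1316, 1320 and 1241 CPM in vehicle and 1268, 1177 and 1282 CPM with NETs, which overlap, and the median log2 fold change of the 12 was -0.02. B2m (ENSMUSG00000060802, chr2:122147686-122153083), the light chain of every class I molecule, measured 1090, 1241 and 1065 CPM in vehicle and 840, 945 and 956 CPM with NETs. The groups did not overlap. The log2 fold change was -0.30 (SE 0.09, adjusted p 0.226). It was -0.34 (adjusted p 0.0606) without vehicle replicate 3 and -0.22 (adjusted p 0.620) without vehicle replicate 2. Nlrc5 (ENSMUSG00000074151, chr8:94434356-94527272) measured 244, 246 and 225 CPM in vehicle and 194, 198 and 200 CPM with NETs, again without overlap and with a narrow spread in each group. Its log2 fold change was -0.26 (SE 0.08, adjusted p 0.226). It was -0.30 (adjusted p 0.0576) without vehicle replicate 3 and -0.23 (adjusted p 0.575) without vehicle replicate 2.

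The TAP transporter genes and tapasin had log2 fold changes close to 0. Tap1 measured 353, 350 and 313 CPM in vehicle and 329, 325 and 341 CPM with NETs, and the log2 fold change came to -0.02 (SE 0.08), or 0.01 without vehicle replicate 2. Tap2 measured 150, 163 and 157 CPM in vehicle and 175, 141 and 176 CPM with NETs, and the log2 fold change came to 0.08 (SE 0.10). Tapbp, the tapasin gene, measured 262, 262 and 263 CPM in vehicle and 286, 251 and 275 CPM with NETs, and the log2 fold change came to 0.06 (SE 0.08). Their standard errors are close to those of B2m and Nlrc5, and the groups overlapped for all 3. Tapbpl, the tapasin-related peptide editor, had a log2 fold change of 0.10 (SE 0.11), and Erap1, which trims peptides in the endoplasmic reticulum, -0.01 (SE 0.09). The difference between these genes and B2m or Nlrc5 was not tested.

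The RFX complex has 3 subunits. Rfx5 (ENSMUSG00000005774, chr3:94954075-94961561) measured 56.8, 57.3 and 47.1 CPM in vehicle and 43.0, 38.2 and 43.5 CPM with NETs. The groups did not overlap; vehicle replicate 3 was the nearest to the NETs libraries. The log2 fold change was -0.36 (SE 0.11, adjusted p 0.24). It was -0.45 (adjusted p 0.0452) without vehicle replicate 3 and -0.30 (adjusted p 0.625) without vehicle replicate 2. Rfxap measured 32.1, 39.7 and 29.5 CPM in vehicle and 36.7, 31.8 and 39.4 CPM with NETs, and the log2 fold change came to 0.10 (SE 0.14). Rfxank, the ankyrin-repeat subunit, stood at -0.23 (SE 0.15, adjusted p 0.53). Of the words in Rfx5 transcripts 22.3% occur in transcripts of other genes, and of those in Rfxank 30.98%, so reads of these genes and of those that share sequence with them may be mixed.

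**Figure D4:**
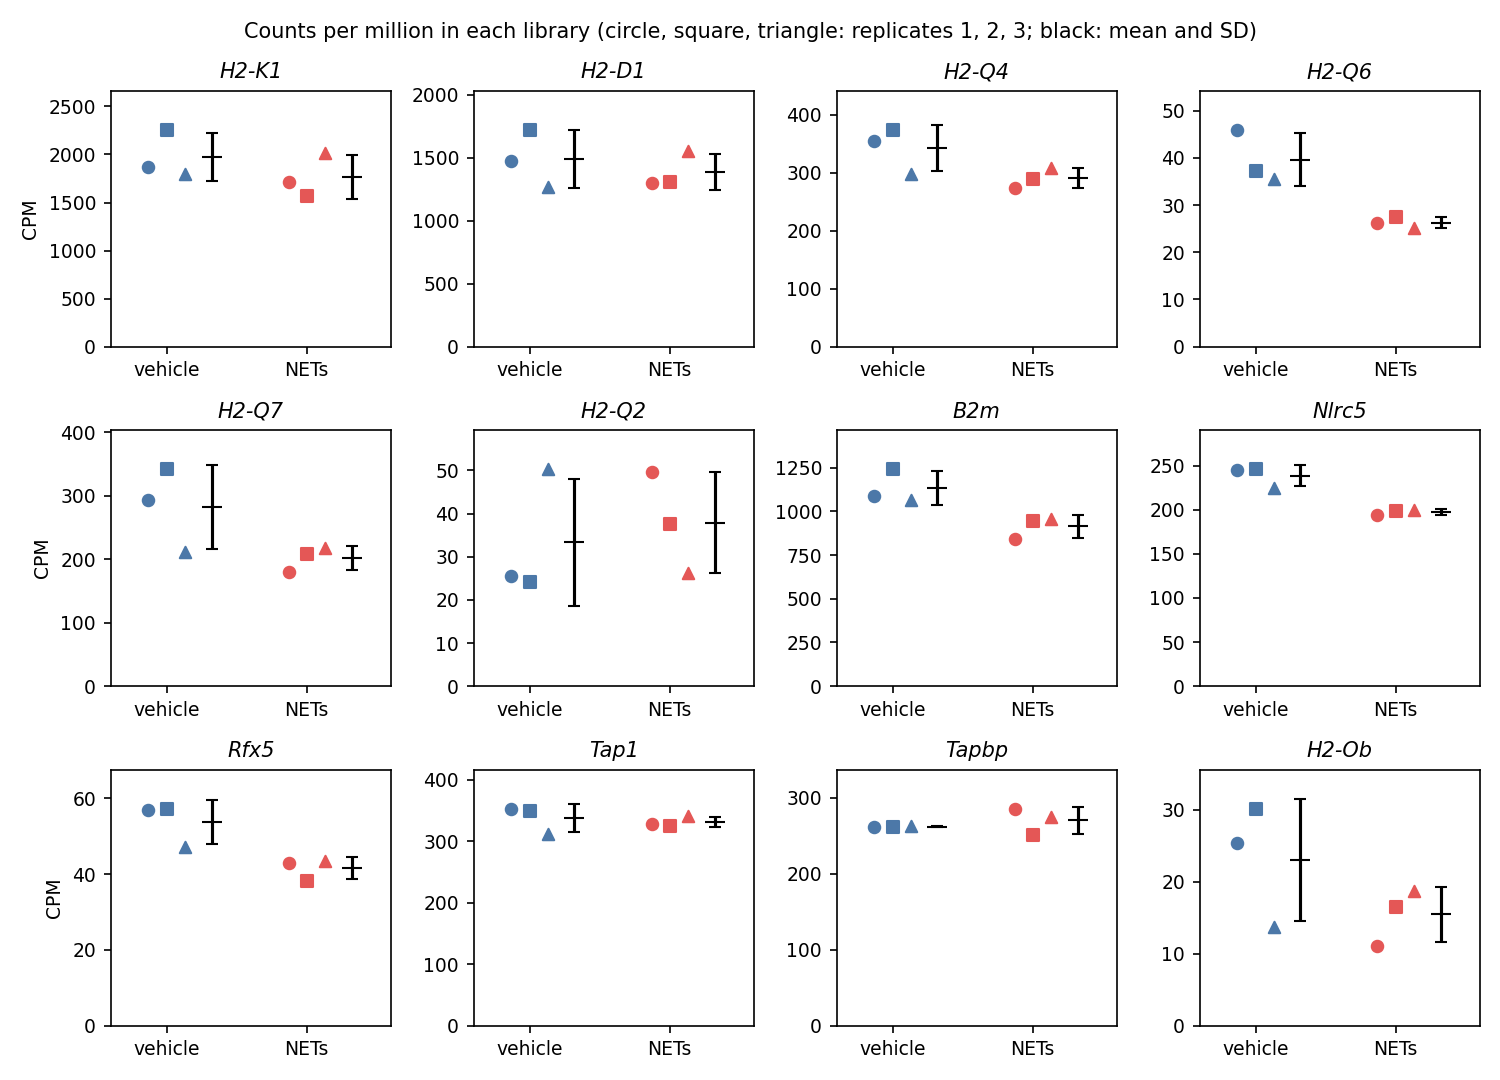
The plot shows the CPM of 12 members in each library, with symbols for replicates 1, 2 and 3 and the mean and SD of each group in black. The groups do not overlap for H2-Q6, B2m, Nlrc5 and Rfx5 and overlap for the other 8, Tap1 and Tapbp among them.

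Class II was low and its members differed in how they varied. The summed level was 182, 188 and 145 CPM in vehicle and 142, 153 and 148 CPM with NETs. Vehicle replicate 3 sat among the NETs libraries, and the ratio of means of 0.858 was 0.797 without it. Of 8 tested class II genes, 7 had a negative log2 fold change and 0 passed p under 0.05. The median log2 fold change was -0.28, -0.43 without vehicle replicate 3 and -0.15 without vehicle replicate 2. The chains H2-Aa, H2-Ab1 and H2-Eb1 showed no shared direction. H2-Aa, the alpha chain, measured 7.13, 5.68 and 5.66 CPM in vehicle and 7.40, 3.37 and 3.27 CPM with NETs. H2-Ab1, its partner beta chain, measured 17.5, 18.7 and 15.2 CPM in vehicle and 14.9, 17.2 and 14.8 CPM with NETs. H2-Eb1, the beta chain of the E molecule, measured 12.8, 9.20 and 14.2 CPM in vehicle and 14.7, 13.3 and 13.5 CPM with NETs. The groups overlapped for all 3 chains, and the log2 fold changes were, in that order, -0.39 (SE 0.31), -0.12 (SE 0.15) and 0.21 (SE 0.18). Without vehicle replicate 3 they were -0.45, -0.20 and 0.34, and H2-Aa had -0.88 without NETs replicate 1. The row of the E alpha chain, H2-Ea-ps, is a pseudogene and had 0 reads. RNA of H2-Eb1 therefore does not show an E molecule on the surface.

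For both chains of the DO molecule, vehicle replicates 1 and 2 lay above all NETs libraries and vehicle replicate 3 did not. H2-Oa and H2-Ob form the DO molecule, which restrains DM. H2-Oa measured 35.5, 41.5 and 23.3 CPM in vehicle and 23.6, 28.9 and 27.3 CPM with NETs, and the log2 fold change came to -0.32 (adjusted p 0.473). It was -0.52 (adjusted p 0.0534) without vehicle replicate 3 and -0.13 without vehicle replicate 2. H2-Ob (ENSMUSG00000041538, chr17:34238903-34245907) measured 25.4, 30.1 and 13.7 CPM in vehicle and 11.1, 16.5 and 18.7 CPM with NETs. Vehicle replicate 3 was the lowest of all 6 libraries for H2-Oa and lay among the NETs libraries for H2-Ob. The log2 fold change of H2-Ob was -0.57 (SE 0.27, adjusted p 0.399). It was -0.83 (SE 0.19, adjusted p 0.0356) without vehicle replicate 3 and -0.32 (adjusted p 0.796) without vehicle replicate 2.

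The DM molecule exchanges peptides in endosomes. H2-DMa measured 67.4, 68.7 and 63.8 CPM in vehicle and 60.5, 61.1 and 60.2 CPM with NETs, without overlap, and the log2 fold change came to -0.13 (SE 0.09, adjusted p 0.578). H2-DMb1 measured 5.15, 4.85 and 2.74 CPM in vehicle and 2.33, 3.48 and 3.27 CPM with NETs. Its log2 fold change was -0.48 (SE 0.32), or -0.71 without vehicle replicate 3, and that of its near copy H2-DMb2 was -0.23 (SE 0.23). The DMb genes share 22.7% and 25.9% of their words with other genes. Cd74, the invariant chain that occupies new class II molecules, measured 46.8, 40.7 and 41.1 CPM in vehicle and 36.4, 38.9 and 36.3 CPM with NETs, without overlap, and the log2 fold change came to -0.19 (SE 0.11, adjusted p 0.472). Ciita had 106 reads in vehicle and 111 with NETs, with 2.30, 2.17 and 1.80 CPM against 3.44, 1.36 and 1.57 CPM. Its log2 fold change of 0.03 (SE 0.42) turned to -0.50 without NETs replicate 1.

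Markers of the cell types that make class II are given beside these values. Of 12 tested B cell markers 10 had a negative log2 fold change. At p under 0.05, 3 (Pax5, Blk and Fcer2a) were lower, beside 6.06% of all genes. Without vehicle replicate 3 only 1 was lower, beside 9.48% of all genes. All 13 B cell markers summed to 464 ± 31.3 CPM in vehicle and 423 ± 11.8 CPM with NETs (SD, n = 3). Ighm, the IgM heavy chain gene, made up most of this, at 400.4 to 463 CPM in vehicle and 381 to 408 CPM with NETs. The other 12 summed to 40.5, 37.3 and 43.3 CPM in vehicle and 39.5, 32.4 and 28.9 CPM with NETs. The 11 dendritic cell markers summed to 20.6 to 33.9 CPM in vehicle and 16.5 to 31.1 CPM with NETs. Of these, 7 lay under 1 CPM in every library, among them Cd209a with 0 reads. The 10 macrophage and monocyte markers summed to more with NETs, 43.0 ± 4.35 CPM against 28.7 ± 5.62 CPM (SD, n = 3). Of 6 tested, 5 had a positive log2 fold change and 1 was higher at p under 0.05, beside 6.72% of all genes. Another 4 of the 10 lay under 1 CPM in every library. The 5 stromal markers summed to 247, 309 and 226 CPM in vehicle and 200, 198 and 247 CPM with NETs. Nearly all of this was Pecam1, so the sum follows that gene and does not by itself show stromal cells. Vehicle replicate 2 was the highest and NETs replicate 3 lay above vehicle replicate 3, as for H2-K1 and H2-D1. The part of any of these cells in the class I and class II values was not tested.

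**Figure D5:**
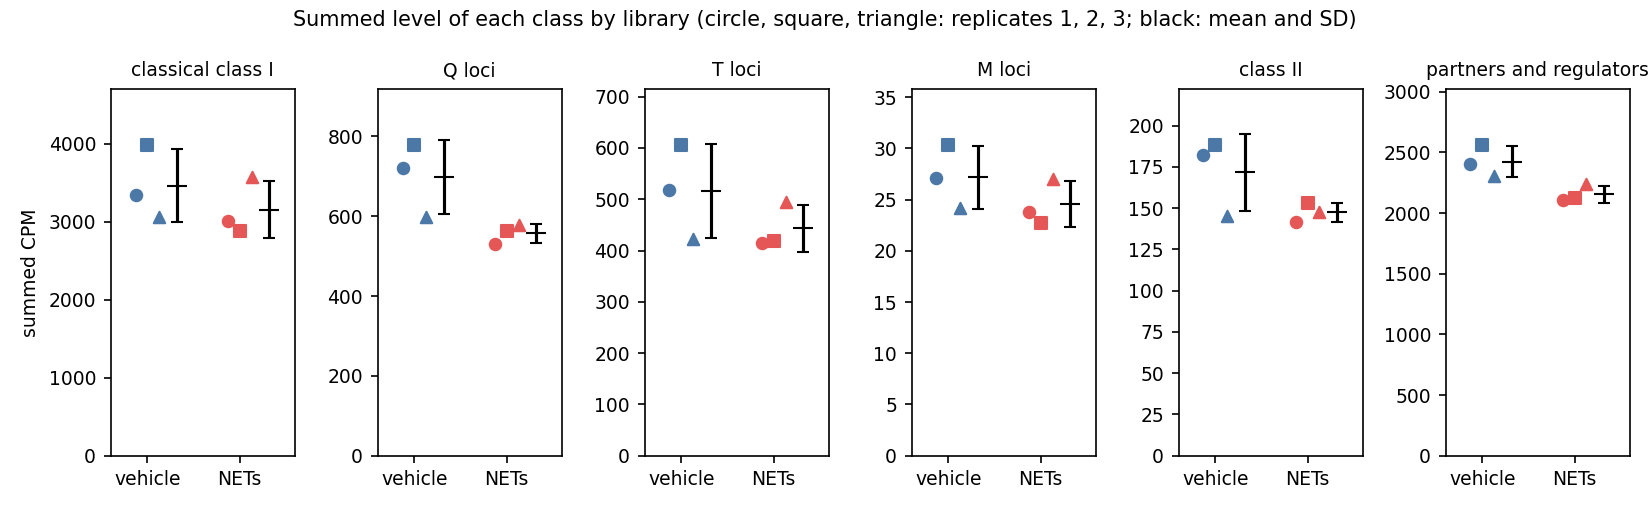
The plot shows the summed CPM of each class in each library, with the mean and SD of each group. Vehicle replicate 3 lies near the NETs libraries for class II, while all vehicle libraries lie above the NETs libraries for the Q loci.

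Other genes of the pathway were taken from lists that were not part of the rule. The immunoproteasome replaces catalytic subunits of the proteasome to favour class I peptides. Of 5 genes, activators included, 2 were higher at p under 0.05 beside 6.72% of all genes and 0 lower, with a median log2 fold change of 0.12. Psmb8, which lies between Tap1 and Tap2, measured 209, 196 and 219 CPM in vehicle and 288, 239 and 284 CPM with NETs, and the log2 fold change came to 0.39 (SE 0.09, adjusted p 0.223). Without vehicle replicate 3 its adjusted p was 0.0351. Psmb9, whose annotation overlaps that of Tap1, had -0.03 (SE 0.12). All 3 constitutive counterparts, Psmb5, Psmb6 and Psmb7, were higher at p under 0.05, beside 6.72% of all genes, with a median of 0.41. All 3 passed the adjusted threshold without vehicle replicate 3, where 1.51% of all genes were called higher.

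Of 13 interferon signalling genes, 11 had a negative log2 fold change, with a median of -0.11. At p under 0.05, 3 were lower and 2 higher, beside 6.06% and 6.72% of all genes. Their summed level was 2251 to 2488 CPM in vehicle and 2085 to 2196 CPM with NETs, without overlap. Jak2, a kinase of the interferon-gamma receptor, showed a difference on the log2 scale of -0.27 (SE 0.08, adjusted p 0.223), Irf2, a factor of interferon response elements, -0.28 (SE 0.11, adjusted p 0.325), and the feedback inhibitor Socs1 0.29 (SE 0.11, adjusted p 0.305). The enhanceosome list, which holds NF-Y and coactivator genes that work with RFX, had 0 of 9 genes at p under 0.05 and a median of 0.01. The loading chaperones and peptidases had 0 of 9 and a median of 0.02, and class II processing genes 0 of 8 and 0.01. Among receptors of class I molecules 1 of 6 tested, Lilrb4a, was lower at p under 0.05, with -0.82 (SE 0.30, adjusted p 0.288). None of 5 tested MHC-like genes outside the H2 region passed, Mr1 having -0.25 (adjusted p 0.478).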

How the data were processed

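Integer counts per gene and FPKM values were deposited by the authors in 1 table with gene symbols, biotypes and coordinates, per the file headers. STAR, DESeq2 and build mm9 are named, without versions, per the submitters' processing notes. The sources used here do not name the counting program, annotation release or strand setting. The coordinates in the deposited table equal those of GENCODE M21 on GRCm38 for 98.3% of 54409 shared genes and for 35 of the 45 members, and they are printed as deposited. FPKM by the authors divides by a length that is not the deposited gene length (for H2-K1 it came to 1121 bases), so levels between genes depend on that choice.

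Counts of 13900 genes kept by filterByExpr were scaled by TMM and tested with edgeR 4.0.16 (quasi-likelihood, robust, two-sided, group only, Benjamini-Hochberg over all genes) in R 4.3.3. The fit was tested on simulated data. CPM uses the library's total counts. Alternatives were DESeq2 1.42.0, limma 3.58.1 (voom on counts, trend on log2(FPKM + 1) and log2(FPKM + 0.1)), upper-quartile scaling, other filters, a replicate block and leaving out each library. The floors for genes without reads cover counting error only. Standard errors and SDs also hold the scatter between libraries.

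The members, classes, marker and pathway lists were chosen with earlier results of these data known. Values in every library were given for H2-K1, H2-D1, B2m, Tap1, Tap2, Tapbp, Nlrc5, H2-Aa, H2-Ab1, H2-Eb1, Cd74, Ciita and the 3 smallest p-values of each class with at least 3 tested members, and up to 3 genes were taken per pathway list. H2-Q2, H2-Q5, H2-DMa, Rfxap, the DMb copy and Psmb9 were named after their values were seen, and the promoter windows were chosen with the fold changes known. Promoter strings were sought in RefSeq promoters of 250 bases before to 50 after each start. Shared words of 50 bases were counted in GENCODE M21 transcripts.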

Additional observations from a re-analysis of the deposited data

How the results depend on the processing

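The count of genes past the adjusted threshold was 0 in edgeR but 130 with DESeq2, 322 with no filter on low counts, 1 with limma-voom, 2 with limma on log2(FPKM + 1) and 2 on log2(FPKM + 0.1), and it ranged from 0 to 405 when single libraries were left out. Members called numbered 2 with DESeq2, 3 with no filter (H2-Q6, H2-Q7 and H2-Ob) and 0 to 4 with single libraries left out, all 4 without vehicle replicate 3. Members at an unadjusted p under 0.05 numbered 5 to 13 with single libraries left out, the 13 without vehicle replicate 3. With the replicate block there were 0 calls among members and 0 among all genes, and 5 members stood at p under 0.05. The share of all genes at that p was taken only for edgeR with all 6 libraries and without vehicle replicate 3. No excess of members is read from the counts of other settings. Deviations of same-numbered libraries correlated at -0.0254, -0.0596 and -0.175, and those of other pairs at -0.179 to 0.223. With 3 libraries a group these values cannot tell whether the numbers pair the samples. The median log2 fold change of the M loci was -0.46 with no filter, where members with few reads enter. With single libraries left out the class II median ranged from -0.43 to -0.15 and that of partners and regulators from -0.10 to 0.0063. Direction changed in 15 of 462 values of single genes under alternatives, in 6 genes. With single libraries left out the log2 fold change of H2-D1 ranged from -0.20 to 0.036, H2-Q2 from -0.046 to 0.62, H2-Q10 from -0.21 to 1.28, Tap1 from -0.075 to 0.014, Erap1 from -0.060 to 0.038 and Ciita from -0.50 to 0.27. H2-Q10 was -0.048 with limma-voom. Ciita was -0.10 with limma-voom, -0.010 on log2(FPKM + 1) with and without the filter, -0.070 on log2(FPKM + 0.1) and -0.063 with the replicate block. The cause of these changes was not tested. Low counts limit what can be said of Ciita, H2-Q10 and the 14 members not tested.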

Other observations

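Of the H2 rows outside the rule, the pseudogene H2-K2 measured 66.0, 73.7 and 42.8 CPM in vehicle and 33.7, 37.5 and 50.6 CPM with NETs, with vehicle replicate 3 between the NETs libraries, and its log2 fold change was -0.57 (SE 0.20, adjusted p 0.286 with edgeR). H2-T10, which shares sequence with H2-T22, measured 56.4, 60.9 and 49.98 CPM in vehicle and 46.3, 48.3 and 46.1 CPM with NETs, without overlap, and had -0.24 (SE 0.11, adjusted p 0.367). H2-T-ps had -0.14 (SE 0.12, adjusted p 0.644). These rows were examined after the members.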
